A study of Homo sapiens with 2 samples.

Results

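The intervals described here border a change of replication timing class: each belongs to a pair of neighbouring nascent strand intervals whose classes are adjacent in the order very early, early, mid early, mid late, late and very late. The 6 classified lists were pooled, each named interval was counted once, and neighbours were found by position on chromosomes 1 to 22 and X. Of 161747 neighbouring pairs, 17869 (11.0%) crossed a one-step change, and these pairs held 32567 of the 161770 intervals (20.1%). The comparison group was the 143176 pairs of the same class (88.5%) and, for single intervals, the 128269 intervals whose neighbours all shared their class. The other 934 intervals bordered only a change of more than 1 class and entered neither side.

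The data come from U2OS, a human osteosarcoma cell line that the labels call wild type, synchronised with a double thymidine block and harvested 2 hours after its release. Both libraries form 1 group, and every list is an intersection of the 2, so no value has a spread over samples. All errors are therefore spreads over chromosomes. Whether the libraries are separate cultures is unstated, no control library was analysed here, and the number of reads behind a peak is unknown. How the classes were set, and from which timing data, is not stated in the labels.

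Replication of a human chromosome starts at many origins in a set order, and neighbouring origins that fire at similar times form timing domains. Between an early and a late domain lies a timing transition region, which forks leaving the early domain cross over time. Nascent strand sequencing marks initiation sites by purifying short new DNA, which lambda exonuclease spares because of its RNA primer. A pair of neighbouring intervals in different classes thus brackets a place where the assigned replication time steps from one part of S phase to the next.

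By count, one-step changes were most frequent in the middle of the timing programme, where the classes also held more intervals. The early class held 41882 intervals, the mid early 48237 and the mid late 36062, against 23090 very early, 9012 late and 3487 very late ones. Of the 17869 pairs, 5688 (31.8%) joined early and mid early intervals, 4705 (26.3%) mid early and mid late, and 4187 (23.4%) very early and early. The later steps were fewer, with 2211 pairs (12.4%) of mid late and late intervals and 1078 (6.03%) of late and very late ones. Both orientations were almost equally frequent, with the later class to the right in 8932 pairs and to the left in 8937. Members made up 31.1% of the late class and 26.1% of the very late class, against 16.8% of the very early, 21.7% of the early, 19.8% of the mid early and 17.6% of the mid late class.

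Chromosomes differed in how often the class changed. The share of intervals that were members ran from 13.6% (chromosome 22) to 36.01% (chromosome X), with a median of 21.1% over the 23 chromosomes. Counted along the chromosome, the order was turned: chromosome 22 had 13.3 one-step changes per Mb and chromosome X had 3.09. Chromosome 22 also held 187 intervals per Mb and chromosome X 14.7, the highest and lowest densities of the 23. The step from late to very late made up 10.4% of the changes on chromosome 4 (74 pairs) and 0.426% on chromosome 19 (3 pairs).

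The gap across a class change was several times longer than the gap between neighbours of the same class. Over all pairs the median gap was 17786 bp at one-step changes (quartiles 5330 and 53906 bp) and 2358 bp between same-class neighbours (quartiles 892 and 7175 bp). Matched on class and chromosome, the one-step gap was 7.30-fold longer and was longer on 23 of 23 chromosomes (mean log2 ratio 2.87 ± 0.42, SD, n = 23; sign-flip permutation test, two-sided, adjusted p = 2.29e-05). The unadjusted p was the smallest that 100000 resamples can give. A chromosome is no biological replicate: such a p measures how regularly a difference appears along the genome of 1 peak set. The direction was favoured in advance, because a change placed anywhere between intervals falls more often in a long gap.

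The gap was longest at the steps into and within late replication. On a chromosome its median was 16975 ± 9345 bp from very early to early, 15417 ± 8443 bp from early to mid early and 19553 ± 9871 bp from mid early to mid late (mean ± SD, n = 23). It was 47338 ± 27366 bp from mid late to late (n = 23) and 88173 ± 51057 bp from late to very late (n = 20). The class-matched ratios were 5.09, 5.64, 6.65, 11.1 and 10.9 in this order. In each kind the one-step gap was longer on every chromosome compared, and each kind passed (sign-flip permutation tests over chromosomes, adjusted p = 2.29e-05 for each). Gaps of over 100 kb made up 46.0% of the late to very late pairs and 13.6% of all one-step pairs, against 1.81% of same-class pairs. At the short end, 4.12% of the one-step gaps and 27.8% of the same-class gaps were under 1 kb. The shortest one-step gap was 292 bp, and 492 of the 143176 same-class gaps were shorter than this observed minimum. All classes were sampled at 1 time, 2 hours after release from the block. Whether gaps at the late steps would be as long at a later harvest was not tested.

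**Figure D1:**
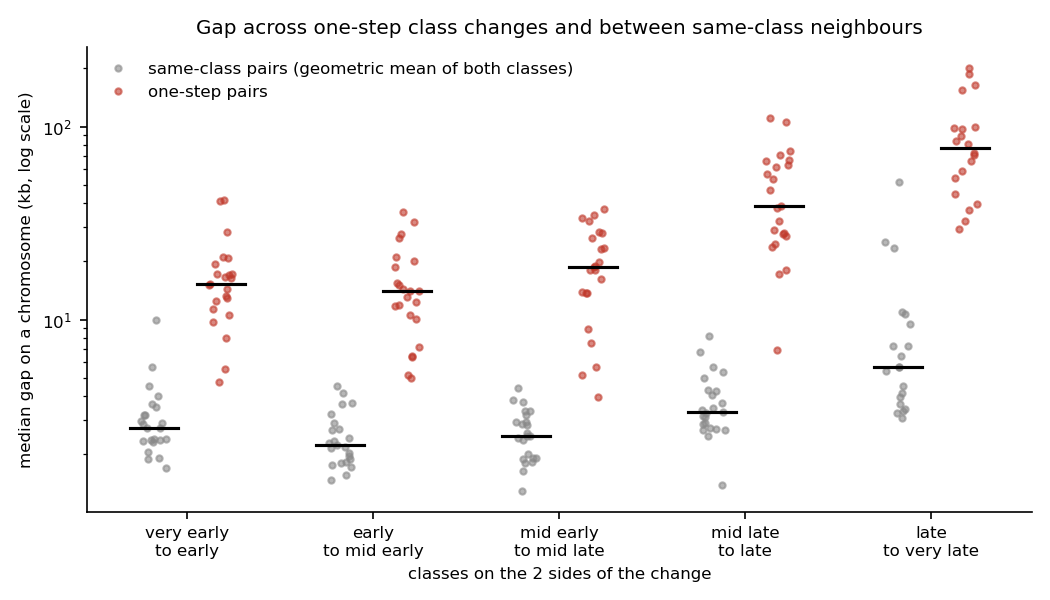
Median gap between neighbouring intervals on each chromosome (points, kb, log axis) for the 5 kinds of one-step change, beside same-class pairs of the flanking classes; black bars are medians over chromosomes. One-step medians lie above same-class ones in every kind, and average 88173 bp at the last step.

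A long gap has more room for a class change than a short one, so the changes were also counted per length of gap. The share of neighbouring pairs with a one-step change climbed from 0.874% in gaps of up to 500 bp to 9.88% in gaps of 4000 to 8000 bp and 46.4% in gaps of over 256000 bp. Per Mb of gap the longer bins held fewer changes. Gaps of up to 500 bp held 20.6 one-step changes per Mb, gaps of 500 to 1000 bp held 32.2, gaps of 4000 to 8000 bp held 17.3, and gaps of over 256000 bp held 0.835. When each gap was weighted by its own length, the class-matched ratio was 2.70 in place of 7.30 (sign-flip permutation test, adjusted p = 1.2e-05). The weights entered one-step and same-class gaps alike, so this ratio does not take out the greater room of long gaps. Pooled over classes and chromosomes, the weighted median of same-class gaps was 58014 bp, and the unweighted median of one-step gaps 17786 bp. By kind the weighted ratio was lowest at late to very late, at 1.47 (adjusted p = 0.041, permutation test), and highest at mid late to late, at 5.20, where chromosomes were very uneven (log2 ratio 2.38 ± 2.43, longer on 22 of 23) and 2 gaps exceeded 10 Mb. The weighting was chosen after the data were examined. One-step gaps held 36.6% of all bases between intervals (1026 Mb) although they were 11.0% of the pairs. Unsequenced or unmappable stretches were not taken out of the gaps.

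**Figure D2:**
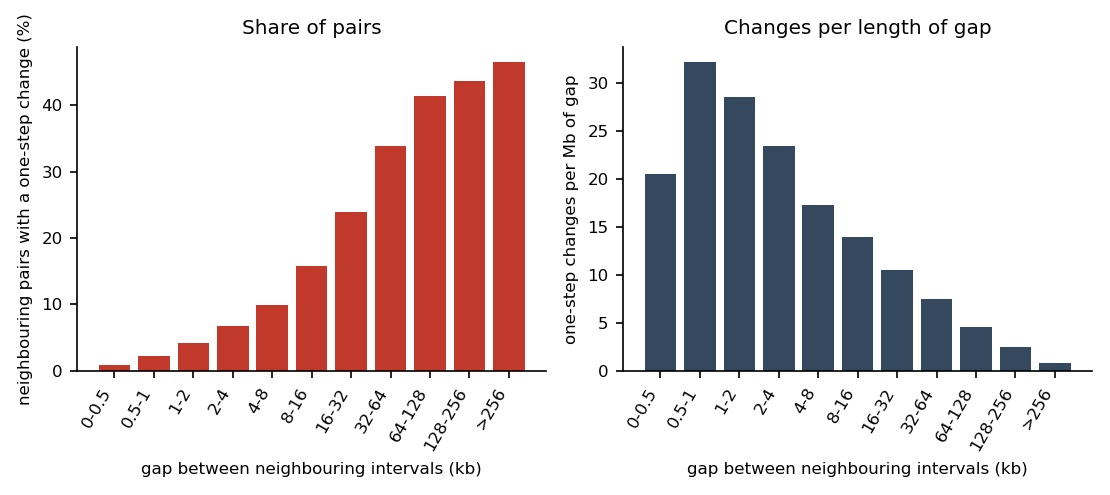
Bars give, for bins of gap length in kb, the percent of neighbouring pairs that cross a one-step change (left) and the number of one-step changes per Mb of gap (right). The share of pairs reaches 46.4% in the longest gaps while the number per Mb is highest at 32.2 in gaps of 500 to 1000 bp and lowest at 0.835 in the longest.

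Intervals that border a class change were narrower and slightly less enriched than intervals of the same class that do not. Per chromosome, members had a median width of 445 ± 65.9 bp and the others 554 ± 62.4 bp (mean over classes ± SD, n = 23), a ratio of 0.801, and members were the narrower on all 23 chromosomes (sign-flip permutation test, adjusted p = 2.29e-05). The width difference was present in all 6 classes, with ratios of 0.910 in the very early, 0.834 in the early, 0.787 in the mid early, 0.767 in the mid late, 0.734 in the late and 0.779 in the very late class (sign-flip permutation tests, adjusted p between 2.29e-05 and 2.54e-04). At a −log10 q of 5 or more the very late class no longer passed (log2 ratio −0.25, n = 12 chromosomes, adjusted p = 0.0797, permutation test). Intervals of 3 kb or more made up 2.65% of the members and 4.29% of the others.

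Fold enrichment, the authors' value for the replicate 1 peak that shares most bases with the interval, was 4.48 ± 0.19 for members and 4.69 ± 0.16 for the others. The ratio of 0.956 held on 22 of 23 chromosomes (sign-flip permutation test, adjusted p = 2.29e-05). It passed in 5 classes, of which the very early class passed at adjusted p = 0.0277, and not in the very late class (ratio 0.981, adjusted p = 0.334, n = 18 chromosomes, sign-flip permutation tests). With intervals of −log10 q 5 or more the ratio over all classes was 0.979, and the early (adjusted p = 0.106) and late class (0.550) no longer passed (permutation tests). With at least 50 intervals on each side the very early class no longer passed (adjusted p = 0.0686, permutation test). The median −log10 q was 4.67 for members and 5.38 for the others. Pieces shared by the libraries spanned 60.1 ± 1.76% of the bases of a member and 59.5 ± 1.32% of another interval, which did not pass the permutation test (difference 0.528 ± 1.55 percentage points, adjusted p = 0.189). The direction depended on the setting. The difference was 1.37 points for intervals of −log10 q 5 or more (adjusted p = 0.0159), −1.13 points for intervals of at least 200 bp (adjusted p = 0.0247) and −10.4 points when only pieces of −log10 q 5 or more counted (6.26% against 16.7%, adjusted p = 3.5e-05, permutation tests).

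Neither difference passed between intervals with a like distance to their nearest neighbour. That distance had a median of 4244 bp for members and 1116 bp for intervals that border no change. Within classes and within bins of this distance (each bin doubling the last), which held 93.6% of the members, the log2 ratio of widths was −0.035 ± 0.06 in place of −0.32 ± 0.10 (n = 23, sign-flip permutation test, adjusted p = 0.145). Members were then narrower on 17 of 23 chromosomes, and the unadjusted p was 0.0132. The log2 ratio of fold enrichments was 0.012 ± 0.04 in place of −0.065 ± 0.03 (adjusted p = 0.449, permutation test). In none of the 6 classes did either ratio pass.

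**Figure D3:**
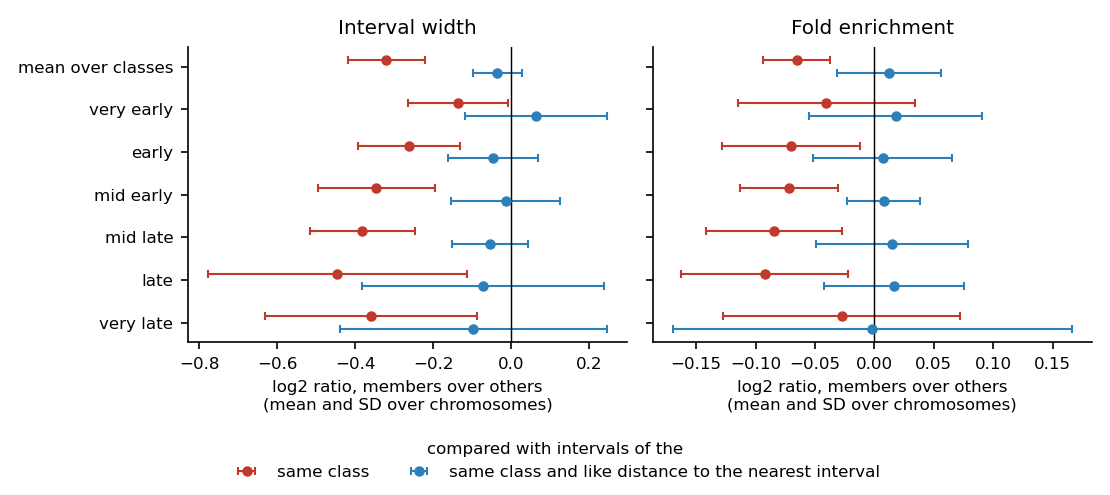
Log2 ratio of median width (left) and fold enrichment (right), members over other intervals, as mean and SD over chromosomes. Red compares within the class, blue within the class and bins of distance to the nearest interval; the mean over classes moves from −0.32 to −0.035 for width and from −0.065 to 0.012 for enrichment.

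More peaks of replicate 1 that overlap no named interval lay in a one-step gap, which was also the longer gap. The peaks of replicate 1 are numbered along each chromosome, so a jump in the numbers between neighbouring intervals counts the peaks that lie between them and overlap no named interval; this assumes consecutive numbering. A peak without a named interval is not always an unshared one, since the timing lists leave out some shared pieces. Retention, the number of pairs over the number of peaks they span, falls by construction as more such peaks lie between neighbours, and so with the length of the gap. It was 55.0 ± 3.78% across one-step pairs and 72.2 ± 3.45% across same-class pairs of the flanking classes, a difference of −17.2 ± 2.01 percentage points that held on 23 of 23 chromosomes (sign-flip permutation test, adjusted p = 2.29e-05). The difference ranged from −16.0 points at late to very late to −18.3 points at early to mid early, and all 5 kinds passed. Within bins of gap length it was 0.759 ± 1.80 points and did not pass (sign-flip permutation test, adjusted p = 0.318). Pooled over chromosomes and not tested, one-step gaps held 1.40 such peaks per 100 kb and same-class gaps 3.12. In 53.0% of the one-step gaps there was none, against 75.1% of the same-class gaps.

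Within a pair, the earlier and the later interval had similar sizes. The median log2 ratio of earlier over later width was −0.027 ± 0.07 over all kinds, with the earlier interval narrower on 15 of 23 chromosomes (sign-flip permutation test, adjusted p = 0.103). For fold enrichment it was 0.0017 ± 0.04, higher on 14 of 23 (adjusted p = 0.839, permutation test). None of the 5 kinds passed for either measure. The nearest to the threshold was the enrichment of mid late over late intervals, at 4.33 ± 0.24 against 4.23 ± 0.20 (ratio 1.04, higher on 14 of 23 chromosomes, sign-flip permutation test, unadjusted p = 0.0424, adjusted p = 0.0778). When only intervals of −log10 q 5 or more were kept, the width difference passed, with a log2 ratio of −0.087 (adjusted p = 0.00102, permutation test), and the earlier interval was the narrower one. Of the kinds, early to mid early (−0.088, adjusted p = 0.0351) and mid late to late (−0.14, adjusted p = 0.0478, permutation tests) passed under that setting. With all intervals, the unadjusted p for width was below the threshold when any of 7 of the 23 chromosomes was left out, the lowest being 0.023 (permutation test).

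The later side of a class change held more intervals than the earlier side. Counted without regard to class, 10.1 ± 3.89 intervals lay within 100 kb of the middle of the gap on the later side and 8.81 ± 3.51 on the earlier side (mean over kinds ± SD, n = 23 chromosomes). The ratio of 1.14 held on 23 of 23 chromosomes (log2 ratio 0.19 ± 0.06, permutation test by sign flips, p = 1.2e-05 after adjustment over 6 comparisons that were added with the data known). It was largest at the step from very early to early, with 12.95 ± 4.34 against 10.8 ± 3.80 intervals, a ratio of 1.20 on 23 of 23 chromosomes. The ratios were 1.14 at early to mid early and 1.13 at mid early to mid late, on 23 of 23 chromosomes each. They were 1.13 at mid late to late on 21 of 23 and 1.11 at late to very late on 16 of 20 (sign-flip permutation tests, adjusted p = 1.2e-05 for the first 4 kinds and 0.00558 for the last). Neighbouring changes share intervals where they lie closer than the window.

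In each kind of step the excess was larger at 50 to 75 kb from the middle of the gap than at 175 to 200 kb. At very early to early steps the density 50 to 75 kb from the middle of the gap was 14.3 intervals per 100 kb on the later side and 10.7 on the earlier side, and at 175 to 200 kb it was 12.6 and 12.4. At mid early to mid late steps it was 11.3 and 9.27 at 50 to 75 kb, and 9.20 and 9.04 at 175 to 200 kb. In the same bins the densities were 6.13 and 4.97, then 5.21 and 5.17, at mid late to late steps. At late to very late steps they were 4.24 and 3.38, then 3.11 and 3.27, with 3.60 and 3.02 at 150 to 175 kb. Within 25 kb, where the gap itself takes room, the sides were close, with 12.9 and 12.4 at very early to early steps.

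**Figure D4:**
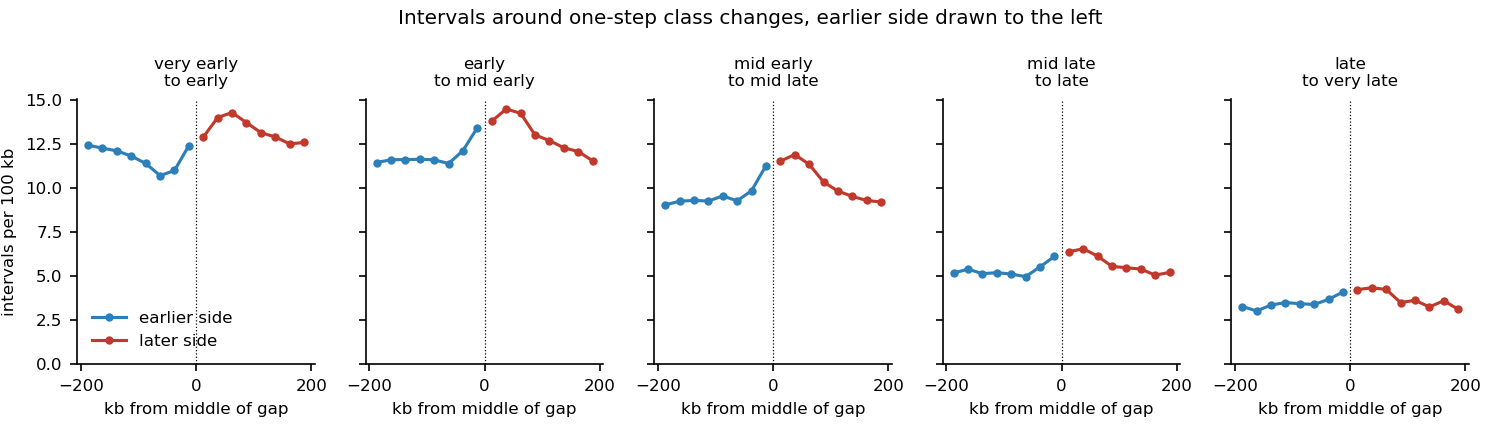
Mean number of intervals of any class per 100 kb, in 25 kb bins from the middle of the gap, for the 5 kinds of one-step change; the earlier side is drawn to the left whatever its direction on the chromosome. The later side peaks within 75 kb, at 14.3 intervals per 100 kb for very early to early steps.

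Long runs of 1 class were also followed interval by interval. Among runs of at least 20 intervals that end at a one-step change, 2308 lay on the later and 1896 on the earlier side of the change. On the later side the gaps shortened inwards, from a median of 2172.5 bp between the first and second interval to 1633 bp between intervals 9 and 10, and the median width was 612.5 bp for the first and 671.5 bp for interval 10. On the earlier side the same gaps were 2114.5 and 1994 bp and the widths 616.5 and 603 bp. The medians are a description, since intervals of a run are not independent, and long runs lie in dense stretches: their change gaps had medians of 5989.5 bp (later side) and 5688.5 bp (earlier side). Classes were pooled, so side and class are mixed: very early runs lie only on the earlier side and very late runs only on the later.

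Runs bounded by one-step changes on both sides fall into 3 shapes. A peak has later neighbours on both sides, a valley has earlier neighbours on both sides, and a slope has one of each, as a step within a timing transition would. Of 17219 such runs, 6113 were peaks, 6113 valleys and 4993 slopes (29.0%). Slopes had a median of 6 intervals, valleys 5 and peaks 4. Peaks were single intervals in 21.8% of cases, valleys in 19.96% and slopes in 12.4%. In the mid late class 56.5% of the runs were valleys, and in the early class 22.4%.

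Intervals in slopes lay farther apart than intervals of the same class in valleys. The median gap inside slopes was 1.54-fold that inside valleys and longer on 23 of 23 chromosomes (mean over classes, log2 ratio 0.62 ± 0.34, sign-flip permutation test, adjusted p = 2.29e-05). In the mid late class it was 5502 ± 4527 bp in slopes and 2221 ± 867 bp in valleys, a ratio of 2.16 on 23 of 23 chromosomes. The late class had a ratio of 2.18 (17 of 20 chromosomes, adjusted p = 0.0022) and the mid early class 1.17 (20 of 23, adjusted p = 0.00308), while the early class did not pass (1.08, 15 of 22, adjusted p = 0.308; sign-flip permutation tests). Slopes and peaks did not differ past the threshold (ratio 0.946, longer in slopes on 8 of 23 chromosomes, adjusted p = 0.493, permutation test). Their log2 ratio was −0.08 ± 0.45. In the mid early class, without 5 Mb at both chromosome ends, gaps in slopes were shorter than in peaks past the threshold (−0.36, adjusted p = 0.00307, permutation test), against −0.22 (adjusted p = 0.0984) with them. In the mid late class, measured as intervals per 100 kb of run, slopes were instead sparser than peaks past the threshold (0.59, n = 9 chromosomes, adjusted p = 0.0425, permutation test), against −0.29 (adjusted p = 0.194) by the gap. Without chromosome 4 the ratio over all classes was −0.15 (unadjusted p = 0.037, permutation test).

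A member with a one-step change on both sides is a run of 1 interval. There were 3171 of these (9.74% of the members), of which 1333 were peaks, 1220 valleys and 618 slopes. Their median width was 361 bp and their median fold enrichment 4.27, against 459 bp and 4.52 for all members. These medians were pooled over classes, matched neither on class nor on distance to the nearest interval, and not tested. They were far from any neighbour, at a median of 23468 bp, and 72.3% lay at least 10 kb from the nearest interval, against 33.7% of all members and 7.84% of intervals that border no change. Both gaps beside such an interval cross a class change by definition, so its greater distance follows from the longer gaps at changes.

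Consecutive one-step changes in 1 direction form a staircase, and most staircases were short. Of them, 8758 (68.0%) had 1 change, 3340 had 2, 694 had 3, 71 had 4 and 13 had all 5. The 13 complete staircases had a median span of 1397 kb, measured between the members at both ends, and ranged from 249 to 2609 kb. Of these, 10 ran towards earlier and 3 towards later classes from left to right. Since 13 tie for the longest, those with most intervals and with the shortest span are given, a choice made after their values were seen. The most intervals, 101, lay on chromosome 17 from 30991709 to 31957591 (hg19), a staircase of 966 kb towards later classes.

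The shortest complete staircase lay on chromosome 3 from 126724241 to 126972906, where 64 intervals passed from very late to very early within 249 kb. Its changes fell in gaps of 1358 bp (very late to late), 1905 bp (late to mid late), 716 bp (mid late to mid early), 6984 bp (mid early to early) and 26542 bp (early to very early). The late part held 21 intervals over 70.4 kb, the mid late part 14 over 57.2 kb, the mid early part 18 over 55.3 kb and the early part 9 over 22.2 kb. Its end members, 1 at each end by definition, were 5604 bp wide at 7.45-fold (very late) and 449 bp wide at 10.2-fold (very early). The highest enrichment within it was 28.0-fold, in the late part.

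**Figure D5:**
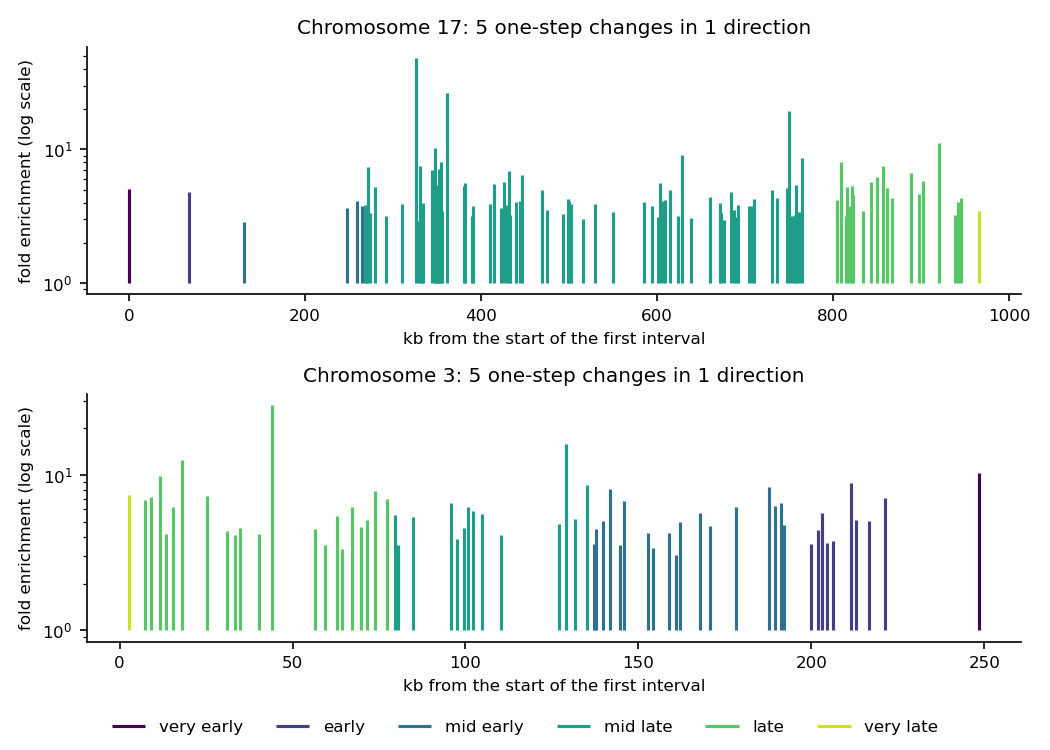
Intervals of 2 complete staircases by distance from the first interval (kb) and fold enrichment of the replicate 1 peak (log axis), coloured by timing class. The chromosome 17 example runs from very early to very late over 966 kb with 101 intervals, the chromosome 3 example from very late to very early over 249 kb with 64.

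Some class changes fell between strongly enriched intervals. Pairs in which both intervals reached 10-fold numbered 92 of the 17869 one-step pairs (0.515%) and 1186 of the same-class pairs (0.828%), a difference that was not tested. Positions below are in hg19, folds are those of replicate 1 peaks, and genes and sequence at these positions were not analysed here. The pairs are, for each kind, the 2 whose less enriched interval is highest.

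The step with the most enriched pair overall was from mid late to late on chromosome 22, where a mid late interval from 49286249 to 49286915 at 21.8-fold faced a late one from 49288503 to 49294051 at 37.9-fold, only 1.59 kb away. The next of this kind lay on chromosome 21, with a mid late interval from 32097221 to 32097867 at 21.3-fold and a late one from 32157547 to 32157925 at 14.5-fold, 59.7 kb apart. Of the 2211 pairs of this kind, just 3 (0.136%) had both intervals at 10-fold or more, against 0.515% of all one-step pairs.

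Between mid early and mid late, the first pair was found on chromosome 4: from 1107380 to 1107916 at 19.7-fold and from 1147732 to 1148171 at 23.6-fold, with 39.8 kb and 3 replicate 1 peaks without a named interval between them. On chromosome 18 a mid late interval from 77707109 to 77707960 at 48.8-fold preceded a mid early one from 77711903 to 77713437 at 15.5-fold, and the gap of 3.94 kb held a shared piece that is in no timing list.

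Early and mid early intervals met at high enrichment on chromosome 12, from 50294947 to 50298602 at 18.7-fold and from 50303077 to 50304920 at 25.3-fold, 4.47 kb apart. Chromosome 19 held a second such pair, from 50182546 to 50183835 at 18.0-fold and from 50184876 to 50185556 at 22.7-fold, 1.04 kb apart. Very early and early intervals did so on chromosome 11, from 62476051 to 62477131 (early) at 14.7-fold and from 62482206 to 62482402 (very early) at 13.3-fold. The other pair of this kind, on chromosome 3, joined wide intervals from 52472720 to 52480002 (7283 bp, early) at 14.5-fold and from 52487402 to 52491005 (3604 bp, very early) at 13.2-fold.

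At the last step enrichments were lower, and 1 pair of late and very late intervals, of 1078 (0.0928%), had both at 10-fold or more. It lay on chromosome 3, from 126706030 to 126707990 (late) at 10.8-fold and from 126709662 to 126714083 (very late) at 10.6-fold, just before the shortest complete staircase. The second, on chromosome 11, joined 133371608 to 133371950 (late) at 9.57-fold with 133388111 to 133388748 (very late) at 12.8-fold across 16.2 kb.

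The extremes of gap length show how differently a change can be bracketed. The longest one-step gap, 21253 kb, lay on chromosome 1 between a mid late interval ending at 121365982 and a late one starting at 142618794. Chromosome X held the longest gaps of 3 kinds, with 3821 kb between mid early and mid late (58561482 to 62382187), 951 kb between early and very early (132643750 to 133594427) and 836 kb between mid early and early (12157100 to 12993163). The longest between very late and late, 3532 kb, lay on chromosome 11 from 51515897 to 55048335. Genome sequence was not analysed, so unsequenced or unmappable stretches in these longest gaps cannot be told from sequence without intervals. At the other extreme, very early and early intervals were 292 bp apart on chromosome 17 (39962359 to 39962652), and mid early and mid late ones 297 bp apart on chromosome 22 (43553843 to 43554141). The shortest gaps of the other kinds were 337 bp for mid late and late on chromosome 19 (31172371 to 31172709), 376 bp for early and mid early on chromosome 2 (121564326 to 121564703) and 383 bp for very late and late on chromosome 16 (64267601 to 64267985).

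Gaps across a class change held round coordinates about as often as same-class gaps of like length, a description with no test. Among one-step gaps of lengths at which same-class gaps did not all hold a multiple of 10 kb, 46.3% held one, beside 46.1% of same-class gaps of like length. For 50 kb the shares were 34.1% and 33.9%, for 5 kb 53.9% and 52.9%, and for 1 kb 72.5% and 69.8% (761 one-step pairs).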

How the data were processed

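Positions, names and classes came from 6 deposited interval lists, whose score column holds the constant 1000 and was not used. The broad peak list, whose peak names carry the library name of replicate 1, gave the deposited fold enrichment (a ratio) and −log10 q, 1 value per whole peak; its other columns, also deposited by the authors, were not used. BWA, MACS2 and hg19 are listed, without versions, in the submitters' processing notes. A peak was joined by most shared bases, at least 1 bp; 70 members had none.

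Medians were taken on each chromosome with at least 20 intervals or pairs on each side, within class. Log2 ratios, or differences in percentage points, were tested over chromosomes by two-sided random sign flips (a permutation test with 100000 resamples) and adjusted by the Benjamini-Hochberg method over 55 comparisons, and over 6 added ones for the sides of a change; the threshold was 0.05. The interval width comparison alone was also run on simulated data, with widths shuffled within chromosome and class, with or without a known difference. Its outcome is not given here. For a change between classes A and B, same-class values are the mean of the A and B values (gaps on the log scale). Members, lists and tests were chosen with earlier results of these data known. Pairs named are, for each kind, the 2 with the highest fold of the less enriched interval, the longest gap and the shortest. Alternatives are given in the closing section. Python 3.11.15, numpy 2.4.6, pandas 2.3.3 and matplotlib 3.10.9 were used.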

Additional observations from a re-analysis of the deposited data

Results flagged for a closer look

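The 6 timing lists leave out some pieces of the shared peak list, and 837 of these lay in gaps across one-step changes, a signal outside the lists used for the comparisons. Another 891 lay in gaps between same-class neighbours. One-step gaps held 48.3% of the 1733 pieces between named intervals and 36.6% of the bases, or 0.816 pieces per Mb of gap against 0.552. Of the 837 pieces, 597 belonged to the replicate 1 peak of a flanking interval, as did 619 of the 891, and the median distances from the nearest interval were 548 and 426 bp. Of the interval ends that face a one-step change, 4.10% lay inside a shared piece, against 0.589% of the ends that face a same-class neighbour. The interval number between the neighbours was missing in 58 one-step gaps (0.325%) and 73 same-class gaps (0.051%). Pairs with an unlisted piece in the gap, or an end facing it inside a shared piece, were 1855 one-step (10.4%) and 2207 same-class pairs (1.54%). Missing numbers did not enter this choice. Without the intervals of these pairs, members were narrower, with a log2 ratio of −0.39, and less enriched, with −0.09 (sign-flip permutation tests, adjusted p = 1.17e-05 for both). The removal lowered the width of members from 445 to 418 bp and of the others from 554 to 547 bp. It was not combined with matching on distance.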

How the results depend on the processing

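Log2 ratios and percentage points are given in the order of the report. Over all classes or kinds, the gap, the later-side excess and the longer gaps in slopes than in valleys kept direction and call in all alternatives run for them. No alternative for the gap took out the greater room that long gaps have for a change. Leaving out each chromosome gave 2.85 to 2.92 for the gap, −0.33 to −0.31 for width, −0.07 to −0.06 for enrichment, −17.4 to −17.1 points for retention, 0.390 to 0.623 for shared bases, −0.032 to −0.021 and −0.00119 to 0.00549 for earlier over later width and enrichment, −0.15 to −0.051 for slopes against peaks, 0.58 to 0.65 for slopes against valleys and 0.19 to 0.20 for the later side. Earlier over later enrichment changed sign in 4 of its 23 values. Matching on distance ended the width call (−0.035) and turned enrichment (0.012), retention (0.759) and shared bases (−0.634). By class it turned very early width (0.064) and the enrichment of the 5 classes from very early to late (0.018, 0.00685, 0.00762, 0.015 and 0.017), and by kind retention at very early to early (0.472), mid early to mid late (0.110), mid late to late (2.57) and late to very late (1.18). Shared bases passed at a −log10 q of at least 5 (1.37, adjusted p = 0.0159, permutation test), and turned with intervals of at least 200 bp (−1.13, adjusted p = 0.0247, permutation test) and with only pieces of that −log10 q (−10.4, adjusted p = 3.5e-05, permutation test). Earlier over later width passed at that −log10 q (−0.087), and enrichment turned (−0.00473), as did mid early to mid late width (−0.010). With gaps of at most 10 kb, width (0.034) and enrichment (−0.00706) turned, as did very early to early (0.017) and mid late to late width (0.20) and mid early to mid late enrichment (−0.00833). Without 5 Mb at both ends, mid early to mid late (−0.020) and mid late to late width (0.023), late to very late enrichment (0.00513) and slopes against peaks in the early class (−0.15) turned. With intervals per 100 kb of run, signed so that positive means sparser slopes, slopes against peaks turned (0.014), also in the early (−0.12) and mid late class (0.59). With at least 50 on each side very late enrichment turned (0.00515). The cause was not tested. Of the values of single classes and kinds under an alternative, 229 kept direction and call, 10 no longer passed, 3 newly passed in the same direction and 1, slopes against peaks in the mid late class, turned and passed. The number of one-step pairs was 17869 after merging within 100 bp and 12313 at a −log10 q of at least 5. No paired analysis was possible because both replicates form 1 group and enter as 1 intersected set. Read depth is unknown, and the classes could not be checked against timing data.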
